A study of Mus musculus with 4 samples.

Results

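The Wnt pathway genes described here were chosen by symbol. They comprised every gene named Wnt, Fzd, Sfrp, Dkk or Rspo followed by a digit, together with Lgr4, Lgr5, Lgr6, Ror1, Ror2, Lrp5, Lrp6, Axin1, Axin2, Znrf3, Rnf43, Wif1, Tcf7, Tcf7l1, Tcf7l2, Lef1 and Ctnnb1. Of the 27873 genes listed in both the cell and the nucleus files, 58 met this rule, and the 36 with at least 30 unique molecular identifiers (UMIs, each a counted RNA molecule) over the 4 libraries were described by cell type. Single cell RNA-Seq (scRNA-Seq, 3 captures) and single nucleus RNA-Seq (snRNA-Seq, 1 capture) had been performed on the stria vascularis (SV), the epithelium of the cochlear lateral wall that generates the endocochlear potential. All tissue came from CBA/J mice at postnatal day 30, with no treatment or engineered allele named in the labels. Each cell suspension pooled about 12 mice and the nucleus suspension about 10 mice per the labels, so that no value belongs to a single animal. The study's methods give other numbers of mice for the cell captures. The 4 groups compared within these captures were marginal, intermediate, basal and spindle/root cells, and each name means a cluster that was like that type in its markers.

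Wnt proteins are secreted ligands that bind Frizzled receptors together with the co-receptors Lrp5 and Lrp6. In the canonical branch this binding stops a destruction complex that contains Axin, so that beta-catenin enters the nucleus and acts with factors of the Tcf and Lef family. In the other branches Wnt5a-like ligands act through Frizzled, Ror1 and Ror2 on cell shape and polarity. R-spondins bind Lgr receptors and remove the ligases Znrf3 and Rnf43, which otherwise clear Frizzled from the cell surface, and Dkk, Sfrp and Wif proteins inhibit the pathway outside the cell. In the SV, marginal cells face the endolymph and carry the potassium channel genes Kcne1 and Kcnq1, intermediate cells are melanocyte-like and express Dct, basal cells are joined by claudin 11 tight junctions, and spindle and root cells lie at the borders of the SV and express Slc26a4.

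To show the sequences at which these genes start, RefSeq promoters (GRCm38.p6, 250 bases before to 50 bases after a start) were matched by symbol, and 21 of the 36 genes had at least 1 promoter in the table, 30 promoters in all. The letters CTTTGAT, a core to which Tcf and Lef factors are known to bind, were searched on both strands. They occurred in 1 of the 30 promoters, against 3.73% of all 32851 promoters, and the promoter with the match was that of 1 of the 3 starts of Wnt5b. The letters CATGTG, a form of E-box bound by factors of pigment cells among others, occurred in 0 of the 30 promoters, against 14.2% of all promoters. The 4 sequences printed here are for genes whose RNA was highest in a different type of nucleus each, intermediate for Wnt5b, marginal for Ror1, basal for Fzd9 and spindle/root for Dkk2. They are written 5′ to 3′ on the strand of the gene, and the capitals mark CTTTGAT at base 180 of the Wnt5b promoter. The libraries count RNA from the 3′ end and measure nothing at a promoter, so the match is only a description of the letters.
Wnt5b (chr6:119449337-119449636, minus strand): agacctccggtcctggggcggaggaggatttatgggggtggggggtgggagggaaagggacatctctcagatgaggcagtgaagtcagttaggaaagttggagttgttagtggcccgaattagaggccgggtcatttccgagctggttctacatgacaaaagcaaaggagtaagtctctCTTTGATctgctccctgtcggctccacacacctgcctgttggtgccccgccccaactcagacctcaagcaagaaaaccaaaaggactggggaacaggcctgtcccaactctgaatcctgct
Ror1 (chr4:100095541-100095840, plus strand): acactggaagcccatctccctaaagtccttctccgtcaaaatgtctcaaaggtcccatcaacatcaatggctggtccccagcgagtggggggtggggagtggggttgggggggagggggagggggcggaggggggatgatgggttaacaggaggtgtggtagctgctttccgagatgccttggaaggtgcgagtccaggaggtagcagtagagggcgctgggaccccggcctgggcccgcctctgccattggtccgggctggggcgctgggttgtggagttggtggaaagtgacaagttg
Fzd9 (chr5:135250998-135251297, minus strand): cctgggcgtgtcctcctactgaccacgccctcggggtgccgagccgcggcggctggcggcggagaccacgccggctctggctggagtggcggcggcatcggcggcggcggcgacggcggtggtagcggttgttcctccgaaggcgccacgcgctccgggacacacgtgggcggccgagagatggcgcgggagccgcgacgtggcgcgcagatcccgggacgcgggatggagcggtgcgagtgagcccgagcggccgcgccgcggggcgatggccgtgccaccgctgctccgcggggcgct
Dkk2 (chr3:132085042-132085341, plus strand): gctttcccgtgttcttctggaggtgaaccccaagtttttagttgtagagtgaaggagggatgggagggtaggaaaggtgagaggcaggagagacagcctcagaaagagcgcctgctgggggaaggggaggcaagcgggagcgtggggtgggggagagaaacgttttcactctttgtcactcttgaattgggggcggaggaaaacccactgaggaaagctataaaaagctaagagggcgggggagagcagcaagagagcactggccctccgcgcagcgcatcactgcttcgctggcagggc

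The cell captures held 392, 1358 and 1580 barcodes with a median of 5054, 4938 and 3878 UMIs, and the nucleus capture held 11057 barcodes with a median of 1561 UMIs. After filters on genes and doublets, 377, 1314 and 1461 cells and 9723 nuclei were kept. Between any pair of libraries 0 to 32 barcodes were shared. The named cells numbered 77 marginal, 985 intermediate, 37 basal and 28 spindle/root, and the named nuclei 2585 marginal, 1473 intermediate, 610 basal and 204 spindle/root. Between 58.9% and 61.0% of the cells of a capture and 41.6% of the nuclei stayed unnamed. In nuclei, a marker of each type went with its name. Kcne1 was highest in marginal nuclei at 989 CPM (UMIs of the gene for every 1000000 UMIs of the group) and Dct in intermediate nuclei at 26158 CPM. Cldn11 was highest in basal nuclei at 847 CPM and Slc26a4 in spindle/root nuclei at 566 CPM. Cells and nuclei of the spindle/root group also carried markers of the other types, with values given below. RNA of other types was also present. For this, genes at 50 CPM or more and at least 20 times higher in intermediate than in marginal nuclei, or the reverse, were taken. The 101 such intermediate genes measured in cells stood in basal cells at a median of 19.7% of their intermediate level, and the 114 marginal genes stood in basal nuclei at 28.5% of their marginal level (quartiles 24.7% and 32.4%). Mitochondrial genes held 35.1% of the UMIs of intermediate, 26.0% of marginal, 18.6% of basal and 13.3% of spindle/root cells. CPM is a share of all UMIs and was not corrected for this, so other genes read lower where that percentage is higher. In nuclei of the erythroid and B cell clusters, which come from blood lineages, the 16 Wnt pathway genes with at least 100 UMIs in a type lay at a median of 3.80% and 6.45% of their highest SV level, with the highest at 15.7% (Ctnnb1) and 57.8% (Axin1).

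In the nuclei, 6 of the 36 genes were highest in marginal, 7 in intermediate, 7 in basal and 16 in spindle/root nuclei. These counts include Rspo1, Sfrp4 and Wnt6, with 1, 2 and 2 UMIs in the 4 types. No share of all genes highest in each type was taken, and the spindle/root sum was the smallest, 355094 UMIs against 4370254 in marginal nuclei. The counts thus do not show a lean of these genes to a type. For 10 of the 36, the 95% interval of the highest type did not overlap that of any other type (exact Poisson intervals, which cover counting error only), as it did for 15.7% of all 14341 genes with at least 30 UMIs over the 4 libraries. These were Ror1 and Rspo3 in marginal nuclei, Dkk3 and Wnt5b in intermediate nuclei, and Dkk2, Fzd3, Fzd6, Lgr5, Rspo2 and Sfrp1 in spindle/root nuclei, with 0 genes in basal nuclei. By type, 4.93%, 3.63%, 2.09% and 5.01% of all these genes were apart and highest in marginal, intermediate, basal and spindle/root nuclei. There was 1 nucleus capture, so these values carry no test between animals. The highest type in nuclei was also the highest in cells for 17 of the 36, a share that was not taken over all genes.

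**Figure D1:**
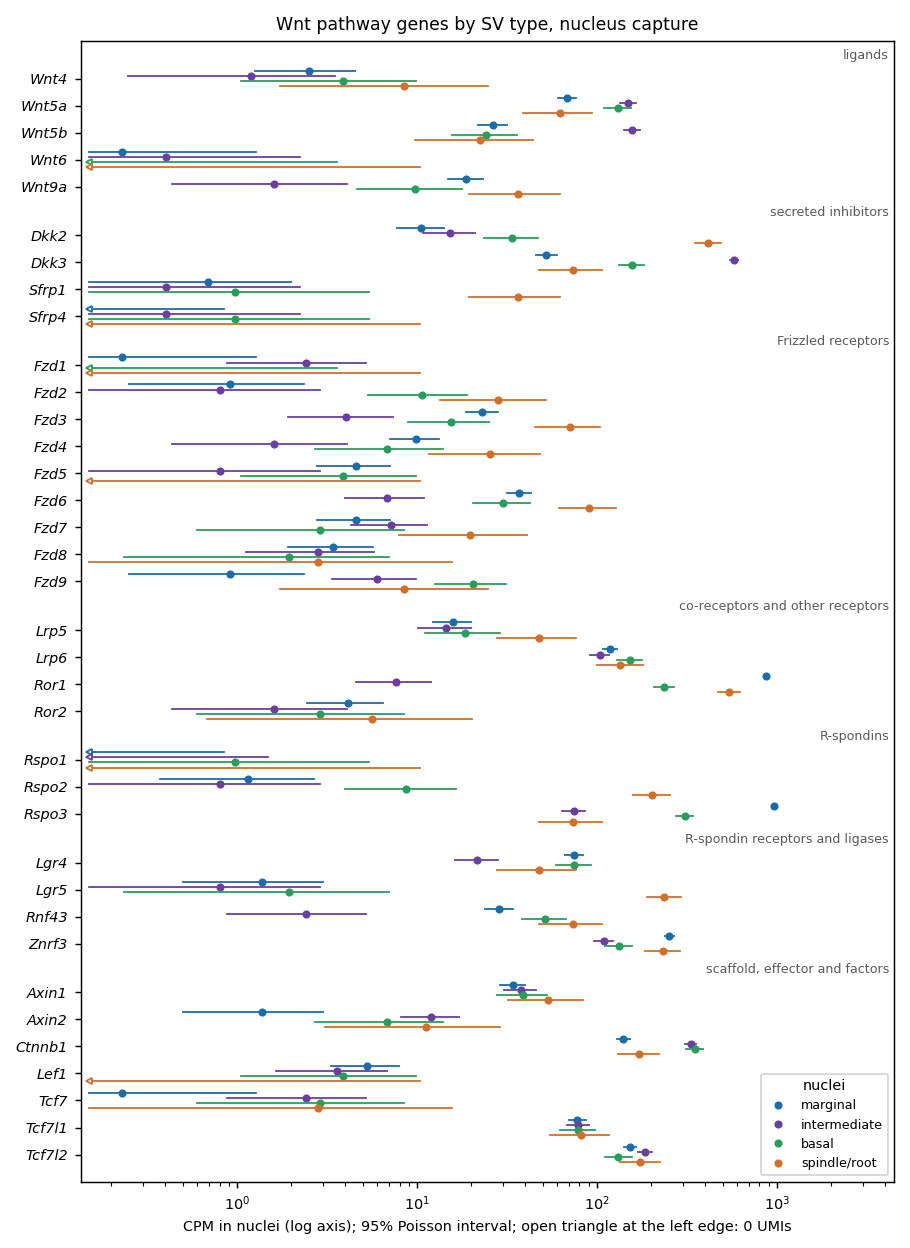
Level of each of the 36 Wnt pathway genes in the nuclei of the 4 SV types. The horizontal axis is CPM on a log scale, each point is the sum of all nuclei of a type with its exact 95% Poisson interval, intervals are cut at the left edge, and an open triangle at the left edge marks 0 UMIs. Rspo3 and Ror1 stand to the right in marginal nuclei at 966 and 872 CPM, Dkk3 in intermediate nuclei at 579 CPM, and Dkk2, Lgr5 and Rspo2 in spindle/root nuclei at 414, 237 and 203 CPM.

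In the cells, 11 of the 36 genes had enough counts in the sums of type and capture to be tested among 5318 genes with edgeR, each type against the mean of the other 3 with the capture as a block. All 11 passed an adjusted p of 0.05 in at least 1 type, as did 59.4% of all genes tested. The filter on counts could let a gene in by its level in 1 type alone. Wnt5b, Fzd9, Wnt4 and Sfrp1 reached at most 19.0, 9.14, 14.4 and 4.10 CPM in any capture outside the type where each was called higher. They entered through that type, so entry and call rest on the same counts. The same filter held for all genes tested. In marginal cells 2 were higher and 4 lower, against 17.7% of all genes tested that were higher and 12.6% that were lower. In intermediate cells 5 were higher and 2 lower, against 17.3% and 17.0% of all genes. In basal cells 5 were higher and 2 lower, against 16.4% and 13.6%. In spindle/root cells 2 were higher and 3 lower, against 12.7% and 5.00%. The median log2 fold change of the 11 was -0.92 in marginal, 0.42 in intermediate, 0.40 in basal and -0.59 in spindle/root cells, where the median of all genes tested was 0.03, -0.02, -0.08 and 0.02. The spread used by the test is shared across genes and the captures are few, so its adjusted p-values can be very small.

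**Figure D2:**
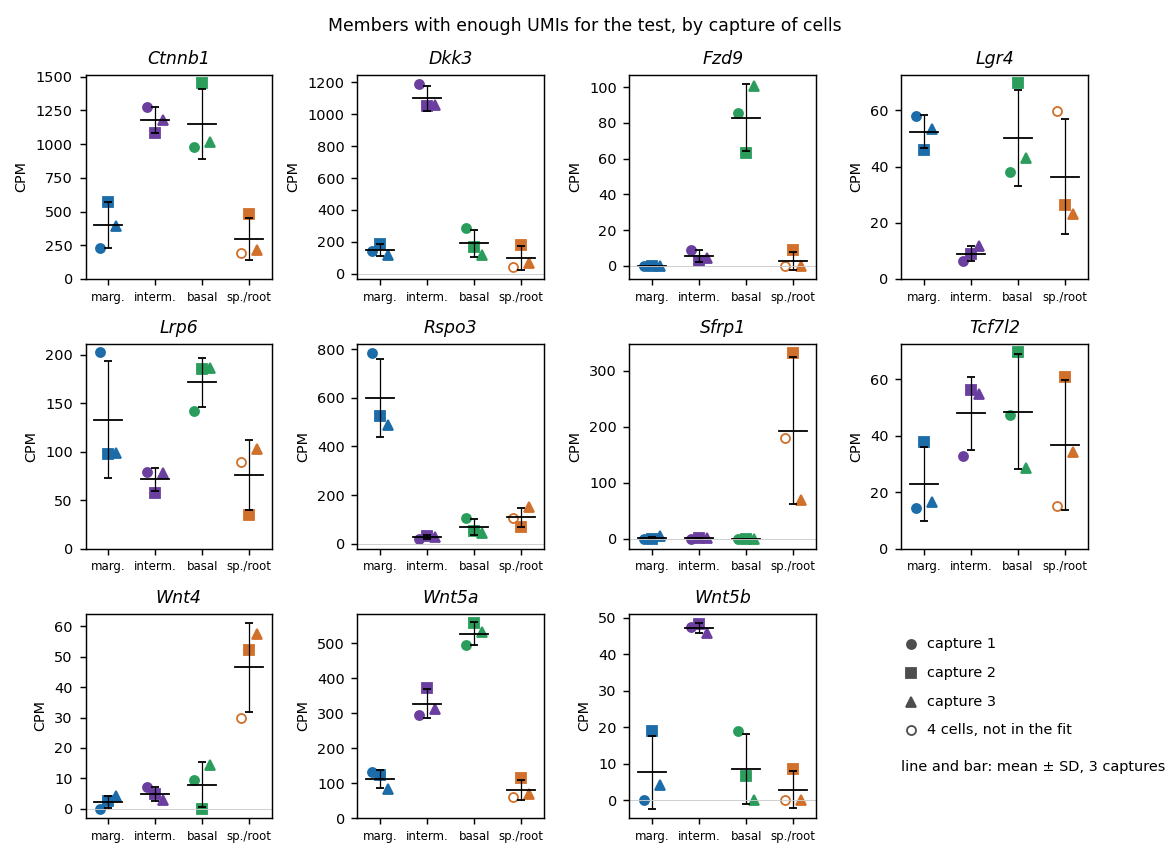
Level of the 11 tested genes in each cell capture. The vertical axis is CPM, each point is the sum of a type in 1 of the 3 captures, bars are the mean and SD over captures, and an open symbol is the sum of 4 spindle/root cells of capture 1 that was not in the fit. The marginal points of Rspo3, 488 to 782 CPM, lie above all its other points, which reach 149 CPM, and the intermediate points of Dkk3, 1051 to 1191 CPM, above all its others, which reach 285 CPM.

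Among the ligands, Wnt5b was led by intermediate cells, Wnt5a was high in basal and intermediate cells, and Wnt4 was led by spindle/root cells. Wnt5b (chr6:119432531-119544347 on mm10, minus strand) measured 47.5, 48.4 and 45.8 CPM in intermediate cells of captures 1, 2 and 3 (47.2 ± 1.37, SD, n = 3). In the other types no capture exceeded 19.0 CPM, and marginal cells of capture 1, basal cells of capture 3 and spindle/root cells of captures 1 and 3 had 0 UMIs. The groups did not overlap, and intermediate cells were higher by a log2 fold change of 2.92 ± 0.40 (SE; edgeR adjusted p = 4.88e-12). Intermediate nuclei had 157 CPM (95% interval 142 to 173), 5.92 times the 26.5 CPM of marginal nuclei, the second type.

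Wnt5a, the prototype of the ligands that act outside the beta-catenin branch (chr14:28504750-28527448, plus strand), measured 494, 556 and 531 CPM in basal cells. Intermediate cells followed with 295, 373 and 312 CPM, marginal cells had 130, 122 and 82.0 CPM, and spindle/root cells had 59.9, 113 and 68.8 CPM. Every basal value lay above every intermediate value, and every intermediate value above all marginal and spindle/root values. These CPM are shares of all UMIs, of which mitochondrial genes held 35.1% in intermediate and 18.6% in basal cells. Basal cells were not tested against intermediate cells alone, so the order of this pair rests on CPM only. The log2 fold change was 1.72 ± 0.20 in basal (edgeR adjusted p = 2.98e-16), 1.29 ± 0.17 in intermediate (edgeR adjusted p = 1.66e-12) and -1.75 ± 0.34 in spindle/root cells (edgeR adjusted p = 3.53e-06). In marginal cells it was -1.26 ± 0.25 (edgeR adjusted p = 4.17e-06), but this call was lost and the direction turned, to 0.04, when clusters of mixed RNA were counted with the types. Nuclei also had more in intermediate and basal than in the other types, at 149 (134 to 165) and 131 (110 to 155) CPM against 68.4 and 62.0 CPM, and the first pair did not differ beyond counting error.

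Wnt4, a ligand known from kidney and gonad development, measured 29.9, 52.3 and 57.3 CPM in the spindle/root sums, from 13 UMIs in all. No capture of another type exceeded 14.4 CPM. The log2 fold change was 3.75 ± 0.85 (edgeR adjusted p = 1.66e-04), fitted without the 4 cells of capture 1, and without capture 2 the gene was not tested. In nuclei, 3 UMIs gave 8.45 CPM (1.74 to 24.7) in spindle/root, an interval that overlapped those of the other 3 types. The remaining ligands above the limit of 30 UMIs were Wnt9a and Wnt6. Wnt9a stood at 36.6 CPM (19.5 to 62.6) in spindle/root, 18.8 CPM (14.9 to 23.3) in marginal, 9.69 CPM in basal and 1.60 CPM (0.437 to 4.11) in intermediate nuclei, and in cells marginal captures had 29.0, 13.5 and 8.20 CPM against at most 1.74 CPM in intermediate captures. Intermediate was thus the lowest of the 4 types in nuclei. In cells intermediate was lowest by pooled level, 1.38 CPM (0.631 to 2.62). That interval overlapped those of basal (1.30 to 18.4) and spindle/root cells (2.30 to 32.6), which had 3 UMIs each. Wnt6 had 1 UMI in the 4 types of cells and 2 in those of nuclei. Most of its UMIs, 41, lay in 41 unnamed cells led by Ccl11, Meg3, Dcn and Mfap5, which are genes of fibroblasts among others, at 174 CPM (125 to 236).

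The R-spondins were divided between types, Rspo3 in marginal and Rspo2 in spindle/root cells. Rspo3 (chr10:29452416-29535867, minus strand) measured 782, 525 and 488 CPM in marginal cells (599 ± 160, SD, n = 3). Spindle/root cells had 105, 69.7 and 149 CPM, basal cells 104, 53.0 and 43.1 CPM and intermediate cells 18.3, 33.1 and 28.6 CPM. The marginal captures stood apart from all others, with a log2 fold change of 3.23 ± 0.19 (edgeR adjusted p = 2.94e-64). Intermediate cells were lower by a log2 fold change of -2.10 ± 0.24 (edgeR adjusted p = 3.28e-17). Marginal nuclei had 966 CPM (937 to 995), 3.13 times the 308 CPM (275 to 344) of basal nuclei. In basal cells the log2 fold change was -1.004 ± 0.31 (edgeR adjusted p = 0.00709), which was -0.89 without capture 2 (edgeR adjusted p = 0.114) and -0.67 without capture 3 (edgeR adjusted p = 0.220), with adjusted p-values between 0.000303 and 0.264 over all alternatives. The basal nuclei went the other way, with a log2 difference of 0.82 to the mean of the other types, beside the 28.5% at which the marginal genes stood there, whose part in this value was not tested. The clusters left out of the marginal group for mixed RNA also held Rspo3, at 236 CPM in 291 cells and 352 CPM in 58 cells.

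Rspo2 (chr15:43020794-43170826, minus strand) was almost limited to spindle/root cells and nuclei. It had 72 UMIs in spindle/root nuclei, 203 CPM (159 to 255), against 8.72 CPM in basal, 1.14 CPM in marginal and 0.802 CPM in intermediate nuclei. In cells it was not tested, with 7 UMIs in spindle/root cells (29.9, 8.71 and 45.9 CPM), 1 UMI in intermediate and 0 UMIs in marginal and basal cells. Against a limit of 3 UMIs over each group, the pooled spindle/root level was 5.92 times the limit in marginal and 4.14 times that in basal cells. These multiples leave out the counting error of the 7 UMIs. Rspo1 had 1 UMI in the 4 types of nuclei and 1 in those of cells, and its 27 UMIs at 114 CPM (75.3 to 166) were in the same Ccl11-led unnamed cells as Wnt6.

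The receptors of R-spondins split likewise, with Lgr5 in spindle/root and Lgr4 outside intermediate cells. Lgr5, a receptor known from stem cells of epithelia and from supporting cells of the cochlea (chr10:115450311-115587780, minus strand), had 237 CPM (189 to 293) in spindle/root nuclei and at most 1.94 CPM in the other 3 types. In cells it had 13 UMIs in spindle/root (29.9, 43.6 and 68.8 CPM), 1 UMI in intermediate and 0 UMIs in marginal and basal cells. Its pooled spindle/root level was 11 times the limit of 3 UMIs in marginal cells and 7.69 times that in basal cells. Lgr4 (chr2:109917647-110014257, plus strand) measured 57.9, 46.0 and 53.3 CPM in marginal, 38.0, 69.6 and 43.1 CPM in basal, 59.9, 26.1 and 22.9 CPM in spindle/root and 6.40, 9.06 and 11.7 CPM in intermediate cells. Every intermediate value lay below all others. The log2 fold change was -1.73 ± 0.43 in intermediate (edgeR adjusted p = 0.000355) and 1.28 ± 0.45 in basal cells (edgeR adjusted p = 0.0180). In marginal cells it was 1.04 ± 0.42 (edgeR adjusted p = 0.0430), a call kept in 6 of 16 alternatives with adjusted p-values from 0.0204 to 0.602, and lost without capture 1 (0.91, edgeR adjusted p = 0.101) or capture 3 (1.00, edgeR adjusted p = 0.233). In nuclei, basal and marginal had 74.6 CPM each and did not differ beyond counting error, and intermediate had 21.6 CPM (16.3 to 28.2).

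The ligases that R-spondins remove were low in intermediate nuclei, where the interval of Znrf3 overlapped that of basal nuclei. Znrf3 (chr11:5276324-5444847, minus strand) had 253 CPM (238 to 268) in marginal and 234 CPM (186 to 290) in spindle/root nuclei, which overlapped, and 133 (111 to 157) and 109 CPM (96.5 to 123) in basal and intermediate nuclei. In cells it measured 29.0, 27.1 and 32.8 CPM in marginal against 14.6, 14.3 and 17.2 CPM in intermediate cells, without overlap. The higher percentage of mitochondrial UMIs in intermediate cells was not taken out of these levels. Basal captures had 19.0 to 43.1 CPM and spindle/root captures 15.0 to 34.4 CPM, from 11 and 6 UMIs, and both overlapped marginal captures. The gap between marginal and basal nuclei was thus not seen in cells. Rnf43 had 73.2, 51.4 and 28.6 CPM in spindle/root, basal and marginal nuclei against 2.41 CPM (0.883 to 5.23) in intermediate nuclei. In cells it had 2 UMIs in 985 intermediate cells, 0.307 CPM (0.0372 to 1.11), and 8, 9 and 5 UMIs in the far fewer spindle/root, basal and marginal cells, at 29.8, 18.9 and 7.33 CPM.

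**Figure D3:**
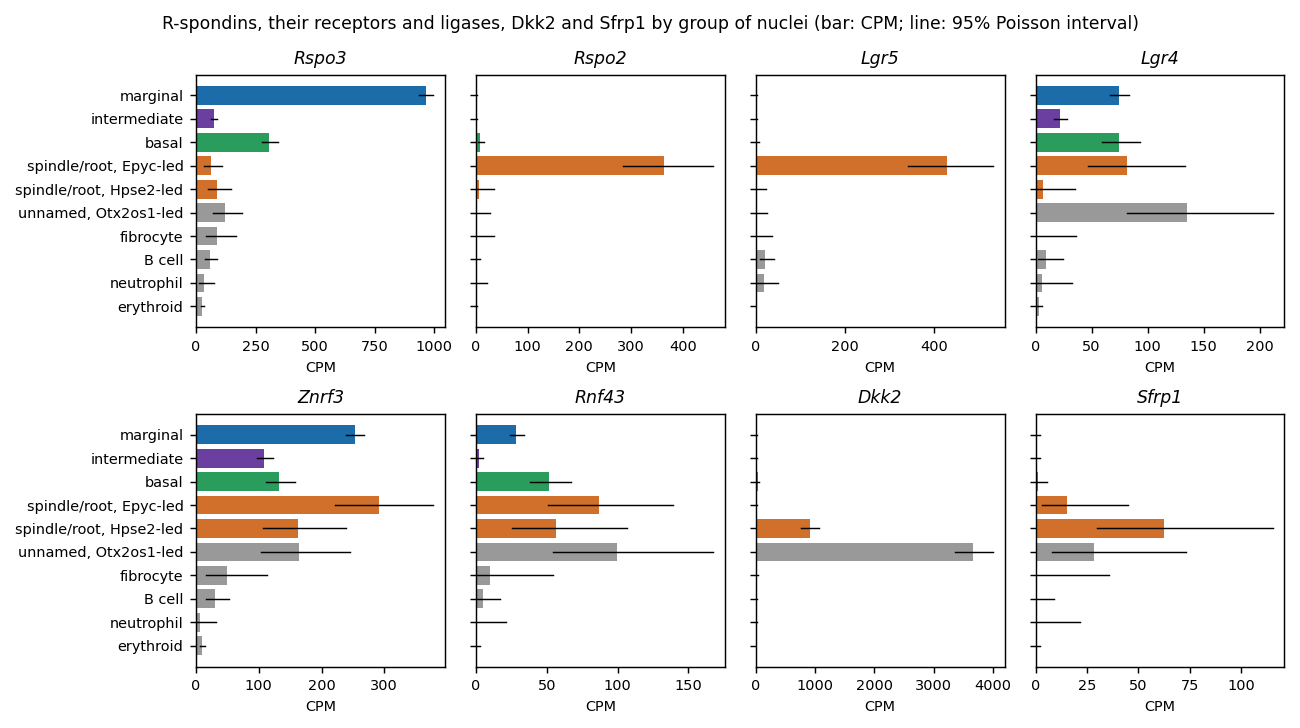
R-spondins, their receptors and ligases, and the inhibitors Dkk2 and Sfrp1 across 10 groups of nuclei. The horizontal axis of each panel is CPM from 0 and the vertical axis lists the groups. Bars are the sum of a group's nuclei, and lines are exact 95% Poisson intervals. Rspo3 peaks in marginal nuclei at 966 CPM, Rspo2 and Lgr5 in the Epyc-led spindle/root nuclei at 363 and 430 CPM, and Dkk2 in the unnamed Otx2os1-led nuclei at 3668 CPM and the Hpse2-led spindle/root nuclei at 914 CPM.

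The spindle/root group held a pair of clusters that differed in these genes. In nuclei, 107 were led by Ceacam16, which codes for a protein of the tectorial membrane, and Epyc, and 97 by Hpse2, Masp1 and Cldn6. Both carried Slc26a4, at 507 and 639 CPM, whereas Epyc stood at 2579 against 106 CPM and Anxa1 at 15.4 against 3068 CPM. Markers of other types were present in the Epyc-led and the Hpse2-led nuclei. The marginal marker Lrp2 stood at 885 and 1421 CPM, Dct at 1341 and 2342 CPM and the basal marker Cldn11 at 76.8 and 582 CPM. The Epyc-led nuclei held all 84 spindle/root UMIs of Lgr5, 430 CPM (343 to 532), against 0 UMIs in the Hpse2-led nuclei, which allows up to 18.8 CPM. They also held 71 of the 72 UMIs of Rspo2, 363 CPM (284 to 458) against 6.26 CPM (0.159 to 34.9). Dkk2 was the reverse, with 1 UMI in the Epyc-led nuclei, 5.12 CPM, and 146 UMIs in the Hpse2-led nuclei, 914 CPM (772 to 1075). Wnt pathway genes had been kept out of the genes used for clustering. With 1 nucleus capture these intervals cover counting error only.

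In cells the UMIs of these genes fell on the same sides, but several captures held too few to pass the limit that a count of 0 allows in the other cluster. The spindle/root cells comprised 17 cells led by Epyc and 11 led by P2rx2, Wfdc18 and Cldn6, in which Anxa1 was high. In captures 1, 2 and 3 the P2rx2-led cells also had 1065, 1754 and 1941 CPM of the basal marker Cldn11. Lrp2, a marginal marker, stood there at 1231, 1118 and 994 CPM, and Dct at 732, 3233 and 505 CPM. Slc26a4 was lower, at 399, 344 and 379 CPM. The Epyc-led cells had 0, 318 and 1846.5 CPM of Slc26a4. In the Epyc-led cells Lgr5 had 2, 5 and 6 UMIs in captures 1, 2 and 3 (54.4, 88.3 and 252 CPM), and Rspo2 had 2, 1 and 4 UMIs (54.4, 17.7 and 168 CPM). The P2rx2-led cells had 0 UMIs of either gene in every capture, where a count of 0 allows up to 47.3 to 99.8 CPM by capture. Above that limit lay Lgr5 in captures 2 and 3 and Rspo2 in capture 3. Dkk2 had 0 UMIs in the Epyc-led cells of every capture, which allows up to 81.6, 53.0 and 126 CPM, and 2, 4 and 2 UMIs in the P2rx2-led cells (66.5, 68.8 and 31.6 CPM), above that limit in capture 2. Wnt4 had 2, 5 and 5 UMIs in the P2rx2-led cells and 0, 1 and 0 UMIs in the Epyc-led cells. These counts are small, and each capture added 2 to 9 cells of a cluster, so they were not tested.

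Of the secreted inhibitors, Dkk3 was led by intermediate cells, and Dkk2 and Sfrp1 by spindle/root cells. Dkk3, a divergent member of the Dickkopf family (chr7:112116017-112159057, minus strand), measured 1191, 1051 and 1061 CPM in intermediate cells (1101 ± 78.2, SD, n = 3). Basal cells had 285, 169 and 115 CPM, marginal cells 145, 187 and 115 CPM and spindle/root cells 44.9, 183 and 68.8 CPM. The intermediate captures stood above all others, with a log2 fold change of 3.16 ± 0.16 (edgeR adjusted p = 9.18e-86), and intermediate nuclei had 579 CPM (549 to 609), 3.71 times the 156 CPM of basal nuclei. Spindle/root cells were lower by a log2 fold change of -1.42 ± 0.30 (edgeR adjusted p = 5.19e-05). The calls in marginal cells (-0.99 ± 0.22, edgeR adjusted p = 6.05e-05) and in basal cells (-0.75 ± 0.23, edgeR adjusted p = 0.00716) both reversed, to 0.43 and 0.45, when clusters of mixed RNA were counted. The basal call was also lost without capture 2, at -0.21 (edgeR adjusted p = 0.710), and its adjusted p-values ran from 0.000872 to 0.710 over the alternatives. The intermediate genes stood at a median of 10.5%, 19.7% and 12.1% of their own level in the marginal, basal and spindle/root groups, and the part of such RNA in the Dkk3 of those types was not tested.

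Sfrp1, which binds Wnt ligands (chr8:23411502-23449632, plus strand), measured 180, 331 and 68.8 CPM in the spindle/root sums, from 56 UMIs. The other types together had 4 UMIs, at most 4.10 CPM in any capture, and basal cells had 0 UMIs. The pooled spindle/root level of 208 CPM was 33.1 times the limit of 3 UMIs in basal cells. The higher level passed the test in the sums of captures 2 and 3 (edgeR adjusted p = 7.95e-27). Without capture 2 it was not tested. Spindle/root nuclei had 36.6 CPM (19.5 to 62.6) against at most 0.969 CPM elsewhere. Within spindle/root, the Epyc-led cells had 272, 565 and 0 CPM and the P2rx2-led cells 66.5, 103 and 94.7 CPM. In capture 3 the count of 0 allows up to 126 CPM in the Epyc-led cells, so the order of these clusters there cannot be told. Dkk2, an inhibitor that binds Lrp5 and Lrp6 (chr3:132085292-132180304, plus strand), had 414 CPM (350 to 487) in spindle/root nuclei, 12.2 times the 33.9 CPM of basal nuclei, and in cells 29.9, 34.9 and 22.9 CPM in spindle/root against 0 UMIs in basal and 2 UMIs each in marginal and intermediate cells. Its pooled level in spindle/root was 4.73 times the limit of 3 UMIs in basal cells. Sfrp4 had 0 UMIs in the 4 types of cells and 2 in those of nuclei.

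**Figure D4:**
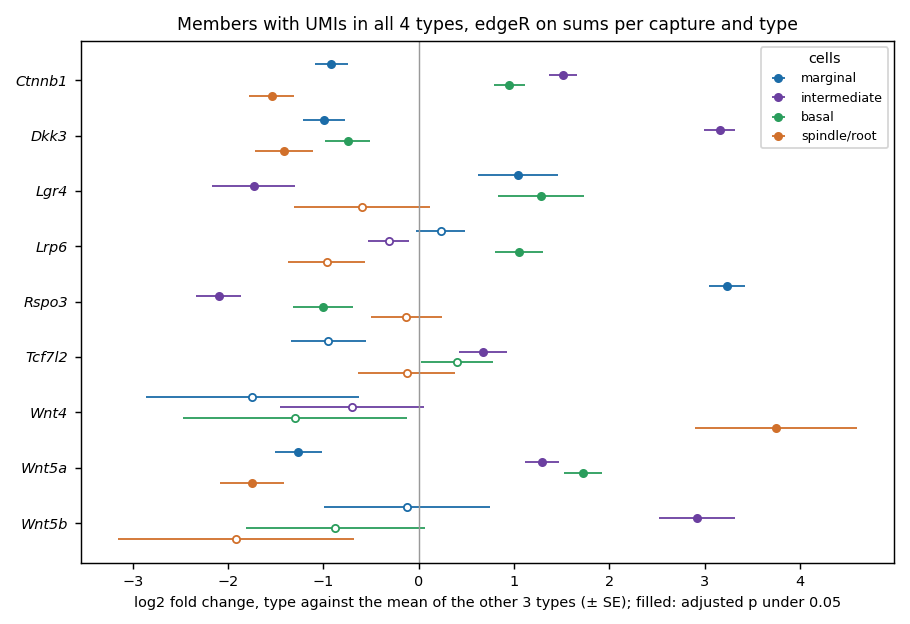
Log2 fold change of each SV type against the mean of the other 3 in cells, for the 9 tested genes with UMIs in all 4 types. Points are edgeR estimates with their SE, and filled points passed an adjusted p of 0.05. Rspo3 reaches 3.23 in marginal, Dkk3 3.16 and Wnt5b 2.92 in intermediate, Wnt5a 1.72 in basal and Wnt4 3.75 in spindle/root cells.

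Among the Frizzled receptors, Fzd9 was led by basal cells and Fzd3 and Fzd6 by spindle/root nuclei. Fzd9 (chr5:135248938-135251230, minus strand), a receptor coded within a single exon, measured 85.4, 62.9 and 101 CPM in basal cells (83.0 ± 18.9, SD, n = 3). Intermediate cells had 9.14, 2.79 and 4.69 CPM, spindle/root cells 0, 8.71 and 0 CPM, and marginal cells 0 UMIs in every capture. The basal captures stood apart (edgeR adjusted p = 2.87e-11), and the pooled basal level of 73.4 CPM was 16.7 times the limit of 3 UMIs in marginal cells. Marginal cells were lower (edgeR adjusted p = 0.0233), a call lost without capture 2 (edgeR adjusted p = 1.00) and without capture 3 (edgeR adjusted p = 0.0784), and its adjusted p-values ran from 0.0184 to 1.00. Basal nuclei were the highest at 20.4 CPM (12.6 to 31.1), but did not differ beyond counting error from the 8.45 CPM (1.74 to 24.7) of spindle/root nuclei, and marginal nuclei had 0.915 CPM (0.249 to 2.34). Cells of an unnamed cluster led by Otos, Slc4a11 and Coch, which are fibrocyte genes, also held Fzd9, at 47.8 CPM (28.3 to 75.6).

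Fzd3 and Fzd6, which are known for planar cell polarity in the inner ear, shared a pattern in nuclei. Fzd3 had 70.4 CPM (45.6 to 104) in spindle/root, 23.1 CPM in marginal, 15.5 CPM in basal and 4.01 CPM in intermediate nuclei. Fzd6 had 90.1 CPM (61.6 to 127) in spindle/root, 37.1 CPM in marginal, 30.04 CPM in basal and 6.81 CPM in intermediate nuclei. The highest type was 3.05 times (1.88 to 4.76) the second for Fzd3 and 2.43 times (1.61 to 3.57) for Fzd6, and intermediate was lowest for both. In cells Fzd6 was highest in marginal cells, 43.5, 21.7 and 28.7 CPM, with 4 UMIs in spindle/root, and Fzd3 had 18 UMIs in the 4 types. Fzd2 had 0 UMIs in marginal cells, and its pooled 31.5 CPM (17.6 to 51.9) in basal cells was 7.15 times the limit of 3 UMIs in marginal cells. In nuclei it had 28.2 CPM (13.5 to 51.8) in spindle/root and 10.7 CPM (5.32 to 19.1) in basal, which overlapped. Fzd4 was lowest in intermediate cells and nuclei, at 0.767 CPM and 1.60 CPM, with 12.6 CPM (4.62 to 27.4) in basal cells and 25.3 CPM (11.6 to 48.1) in spindle/root nuclei. Fzd1, Fzd5, Fzd7 and Fzd8 had 7, 26, 48 and 25 UMIs in the 4 types of nuclei, and for none of them was the highest type apart from the second in nuclei.

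Of the co-receptors and other receptors, Ror1 differed most between types and Lrp6 least in nuclei. Ror1, a receptor kinase for Wnt5a (chr4:100095791-100444765, plus strand), had 872 CPM (845 to 900) in marginal, 544 CPM (470 to 626) in spindle/root, 236 CPM (207 to 267) in basal and 7.62 CPM (4.59 to 11.9) in intermediate nuclei. Each neighbouring pair in this order differed beyond counting error. In cells it had few UMIs and was not tested, with 29.0, 10.8 and 24.6 CPM in marginal and 15.0, 8.71 and 22.9 CPM in spindle/root cells, which overlapped, against at most 0.914 CPM in intermediate and 0 UMIs in basal cells. The marginal genes stood at a median of 28.5% and 24.5% of their marginal level in basal and spindle/root nuclei, and at 1.87% and 30.5% in basal and spindle/root cells, and their part in the Ror1 of these groups was not tested. Ror2 had 0 UMIs in the 4 types of cells and 27 in those of nuclei.

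Lrp6 (chr6:134446476-134566965, minus strand) measured 142, 185 and 187 CPM in basal cells, against 203, 97.4 and 98.4 CPM in marginal, 78.6, 57.9 and 78.2 CPM in intermediate and 89.8, 34.9 and 103 CPM in spindle/root cells. The basal and marginal values overlapped. The log2 fold change in basal cells was 1.05 ± 0.25 (edgeR adjusted p = 0.000273), and 0.51 without capture 2 (edgeR adjusted p = 0.333), with adjusted p-values from 6.23e-05 to 0.333 over the alternatives. In nuclei it ran from 104 CPM in intermediate to 152 CPM in basal, and basal and spindle/root did not differ beyond counting error. Lrp5 had 47.9 CPM (27.9 to 76.7) in spindle/root nuclei and 14.4 to 18.4 CPM in the other types. In cells it had 109 UMIs over the 4 types, 90 of them in intermediate cells at 13.8 CPM (11.1 to 17.0). Spindle/root cells did not have the higher level of the nuclei, with 1 UMI, 3.72 CPM (0.0942 to 20.7).

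In the core of the pathway, Ctnnb1 was high in intermediate and basal cells and low in marginal and spindle/root cells. Ctnnb1, the gene of beta-catenin, which also holds together adherens junctions (chr9:120929216-120960507, plus strand), measured 1279, 1083 and 1178 CPM in intermediate and 978, 1451 and 1020 CPM in basal cells. Marginal cells had 232, 574 and 390 CPM and spindle/root cells 195, 479 and 218 CPM. The first pair of types overlapped each other and lay above all captures of the others. The log2 fold change was 1.51 ± 0.15 in intermediate (edgeR adjusted p = 1.32e-22), 0.95 ± 0.16 in basal (edgeR adjusted p = 8.40e-08) and -1.54 ± 0.23 in spindle/root cells (edgeR adjusted p = 1.36e-09). In marginal cells it was -0.92 ± 0.18 (edgeR adjusted p = 2.15e-06) and turned to 0.36 when clusters of mixed RNA were counted. Nuclei had the same order of pairs, 349 (314 to 387) and 332 CPM (310 to 355) in basal and intermediate against 140 (129 to 152) and 172 CPM (131 to 221) in marginal and spindle/root.

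Axin2, a scaffold of the destruction complex that is itself a target of beta-catenin signalling, was lowest in marginal cells. It had 139 UMIs in intermediate cells, 28.3, 19.9 and 19.9 CPM by capture, 16 UMIs in basal cells, 19.0, 39.7 and 28.7 CPM, and 0 UMIs in 77 marginal cells. The pooled levels were 4.85 times and 7.63 times the limit of 3 UMIs in marginal cells. Nuclei had 12.0 CPM (8.11 to 17.2) in intermediate and 1.37 CPM (0.504 to 2.99) in marginal. Axin1, the other Axin scaffold, ran from 34.1 CPM in marginal to 53.5 CPM (32.2 to 83.6) in spindle/root nuclei. In cells Axin1 was not tested. Its intermediate captures had 10.8 to 15.6 CPM, below marginal (16.4 to 29.0) and basal captures (23.2 to 38.0). The higher percentage of mitochondrial UMIs in intermediate cells was not taken out of these CPM. Spindle/root captures had 8.71 to 44.9 CPM, from 6 UMIs.

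Of the transcription factors, Tcf7l1 and Tcf7l2 were present in all 4 types, whereas Tcf7 and Lef1 had few UMIs. Tcf7l1 lay between 77.8 and 81.7 CPM in nuclei, a range smaller than the 95% interval of each value, of which that of marginal nuclei was the narrowest (69.7 to 86.5). The cells, where Tcf7l1 was not tested, did not have such even levels. Intermediate captures had 8.23 to 11.7 CPM, below marginal (16.2 to 29.0) and basal captures (19.9 to 43.1). Mitochondrial UMIs, 35.1% in intermediate, 26.0% in marginal and 18.6% in basal cells, were not taken out of these CPM. Their part in the gap was not tested. Spindle/root captures had 8.71 to 44.9 CPM, from 7 UMIs. Tcf7l2 lay between 132 CPM (111 to 156) in basal and 185 CPM (169 to 203) in intermediate nuclei. In cells it measured 32.9, 56.1 and 54.8 CPM in intermediate and 47.5, 69.6 and 28.7 CPM in basal, against 14.5, 37.9 and 16.4 CPM in marginal and 15.0, 61.0 and 34.4 CPM in spindle/root cells, all of which overlapped. The log2 fold change in intermediate was 0.67 ± 0.25 (edgeR adjusted p = 0.0254), a call lost without the capture as a block (0.56, edgeR adjusted p = 0.0754) and without capture 3 (0.42, edgeR adjusted p = 0.429), and kept in 10 of 16 alternatives with adjusted p-values from 0.00515 to 0.429. Tcf7 had 47.5, 29.8 and 14.4 CPM in basal cells, 15 UMIs, and 5.37 CPM (3.74 to 7.47) in intermediate cells. In nuclei it had 11 UMIs, and a long noncoding RNA gene on the same strand within its bounds, Gm26551, had 442 CPM in spindle/root nuclei. Lef1 had 2 UMIs in the 4 types of cells and 36 in those of nuclei, with at most 5.26 CPM in a type.

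Other genes of the pathway were counted from lists that name no member of the rule. The filter on counts could let these in, too, by their level in 1 type alone. Of 14 destruction complex genes 8 were tested, and 1 was called, Apc, higher in basal cells by a log2 fold change of 1.06 (edgeR adjusted p = 8.26e-05). Nuclei did not show this rise, with 202 CPM of Apc in basal against 208, 192 and 211 CPM in marginal, intermediate and spindle/root. Of all genes tested, 16.4% were higher in basal cells. Of 12 planar cell polarity genes 4 were tested, and edgeR and DESeq2 each called 0 of the 4 in any type, with 1 at an unadjusted edgeR p under 0.05 in basal cells and 0 in the other types. Of 13 nuclear partners of beta-catenin 7 were tested, of which edgeR called 1 higher and 2 lower in marginal (17.7% and 12.6% of all genes tested), 2 higher and 1 lower in intermediate (17.3% and 17.0%) and 3 higher and 1 lower in basal cells (16.4% and 13.6%). In intermediate cells DESeq2 called 1 of the 7. In spindle/root cells edgeR and DESeq2 called 0 of the 7, and 1 had an unadjusted p under 0.05. Several were co-repressors of the Groucho family. Tle4 had 263 ± 29.4 CPM in basal cells (SD, n = 3; log2 fold change 2.63, edgeR adjusted p = 1.72e-23) and 255 CPM in basal nuclei, its highest type in both. Tle3 had 85.6 ± 19.1 CPM in basal cells (log2 fold change 2.41, edgeR adjusted p = 1.73e-06) and Tle2 58.5 ± 26.2 CPM in marginal cells (log2 fold change 1.86, edgeR adjusted p = 0.00105). In intermediate cells Ctnnbip1, an inhibitor of the contact of beta-catenin with Tcf, had 71.9 ± 4.35 CPM (log2 fold change 1.47, edgeR adjusted p = 1.79e-07), and Pygo1, a co-activator, had 14.6 ± 2.46 CPM against 0 UMIs in marginal cells (edgeR adjusted p = 0.00628). Pygo1 was also higher in basal cells, at 34.6 ± 18.6 CPM (SD, n = 3; edgeR adjusted p = 0.00548).

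Of 12 other extracellular and membrane inhibitors 2 were tested. Of these 1 was higher in intermediate, 1 higher in basal and 1 lower in marginal cells, against 17.3%, 16.4% and 12.6% of all genes tested. Sostdc1, which binds Lrp6 and bone morphogenetic proteins, had 67.4 ± 18.1 CPM in basal cells (SD, n = 3) and 0 UMIs in marginal cells (edgeR adjusted p = 4.42e-14 for basal; DESeq2 did not call it), with 13.6 CPM in basal nuclei and at most 1.203 CPM in the other types. Nkd1, an inhibitor that is also a target of the pathway, had 68.0 ± 7.05 CPM in intermediate cells (log2 fold change 2.43, edgeR adjusted p = 6.17e-14) and 29.7 CPM in intermediate nuclei. In the other types of cells the mean was at most 22.9 CPM for Sostdc1 and 28.9 CPM for Nkd1. Sostdc1 and Nkd1 entered the test through the type where each was called higher, so entry and call rest on the same counts. Of 8 commonly used target genes 2 were tested, and both were lower in marginal cells, as were 12.6% of all genes tested. The log2 fold change was -2.14 for Nkd1 (edgeR adjusted p = 0.00468) and -3.23 for Tnfrsf19 (edgeR adjusted p = 1.24e-05). Nkd1 was also counted among the inhibitors. Tnfrsf19 was also higher in basal cells, at 78.9 ± 6.84 CPM (log2 fold change 2.07, edgeR adjusted p = 1.69e-05). Of 3 genes for secretion or modification of ligands 1 was tested, Wls, which carries Wnt proteins to the cell surface. It was lower in marginal cells (log2 fold change -1.05, edgeR adjusted p = 5.87e-05), as were 12.6% of all genes tested.

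The ratio of the level in nuclei to that in cells differed widely between genes. For the 14 genes with at least 10 UMIs in both, taken in the type highest in nuclei, it ran with the length of the gene from start to end (Spearman's rho 0.873 across genes, which are not independent and share libraries, given without a p). Ror1, 349 kb long, was 49.6 times higher in nuclei, and Znrf3 8.63 times. Fzd9, 2.29 kb long, had 0.277 times and Sfrp1 0.176 times the level of the cells. A gene with 0 UMIs or few UMIs in cells can thus be well counted in nuclei.

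**Figure D5:**
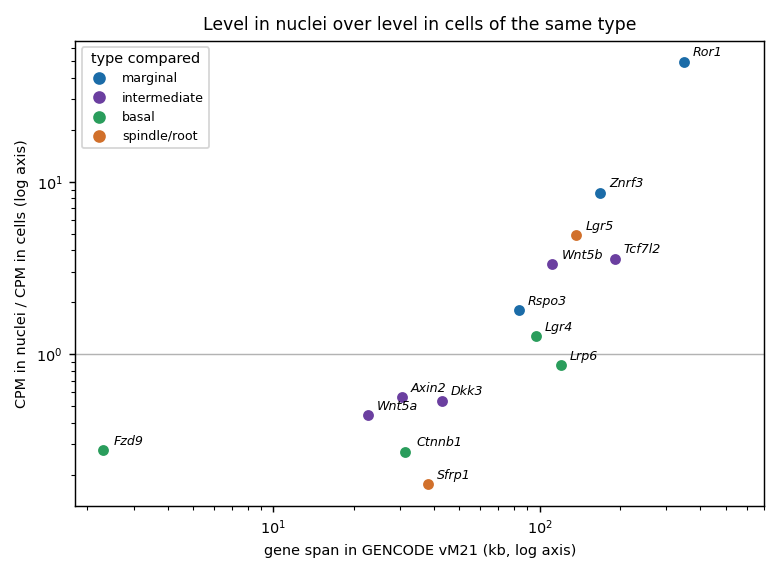
Ratio of CPM in nuclei to CPM in cells against the length of the gene from start to end in kb, both on log axes, for the 14 genes with at least 10 UMIs in both assays. Each point is 1 gene in the type where it was highest in nuclei. Ror1, at 349 kb, lies at the top right with a ratio of 49.6, and Fzd9, at 2.29 kb, at the left with 0.277.

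The remaining 22 of the 58 genes had fewer than 30 UMIs over the 4 libraries and are given by their totals only. Lgr6 had 28, Wnt7b 25, Sfrp5 24, Fzd10 13, Wnt2b 12 and Wnt7a 9 UMIs. Wnt16 and Wnt2 had 7 each, Sfrp2 and Wnt3 5 each, Dkk1 and Wnt10a 4 each, Wif1 3, Rspo4 and Wnt3a 2 each, and Wnt11 and Wnt8b 1 each. Dkk4, Wnt1, Wnt10b, Wnt8a and Wnt9b had 0 UMIs. At this depth their absence from a type cannot be told from a low level.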

How the data were processed

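Single cells (3 captures) and single nuclei (1 capture) of the SV were used. The authors deposited raw, unnormalized UMI counts (genes by barcodes), 1 matrix a capture and not yet aggregated, made with Cell Ranger 2.0.0 on mm10 per the submitters' processing notes. Whether reads were counted by strand is not given in the sources used here, so a gene and its antisense partner cannot be told apart: 17 of the 36 genes are overlapped on the opposite strand and 9 on the same strand in GENCODE vM21. The Wnt pathway genes, the type markers and the pathway lists were chosen with earlier results of these data known.

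Barcodes with under 200 genes were left out, as were those with the highest Scrublet scores (scanpy 1.11.5), in a share set by the number of barcodes, which took 1, 15 and 20 cells and 978 nuclei. Clustering was run in Seurat 5.3.0 (R 4.3.3) on 2000 variable genes without the Wnt pathway genes, on principal components with a JackStraw p under 0.0001, at a resolution of 0.8, and mixed clusters were clustered again. A cluster was named when at least 3 markers of a class were raised (in at least 10% of barcodes and 2 times the rest) and the second of 15 classes stayed under 0.67 of the first. A further condition was added after the data were seen: a cluster stayed unnamed where the markers of another of the 4 types reached 0.67 of its own, relative to their highest cluster. It left out 15.9%, 14.8% and 10.3% of the cells of captures 1, 2 and 3 and 0.422% of the nuclei. In cells it took clusters of 291 and 58 cells first named marginal, beside the 77 kept. It also took a cluster of 56 cells first named basal, beside the 37 kept. The marginal and basal cells compared are thus the smaller part of those first named so.

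Counts were summed per type and capture with at least 5 cells, which gave 11 sums, since capture 1 had 4 spindle/root cells. Sums of 69026 to 2869104 UMIs entered edgeR 4.0.16 (filterByExpr, TMM, robust quasi-likelihood fit), each type against the mean of the other 3 with the capture as block and Benjamini-Hochberg adjustment over 5318 genes. All types of a capture come from 1 suspension, which pairs them: correlations of deviations from type means were -0.05 to 0.40 for 15 pairs of the same capture and -0.32 to 0.08 for 30 others, over 1141 genes. Captures are separate suspensions of pooled mice. On simulated sums of 3918 genes 90 of 99 true 4-fold changes and 23 of 94 true 2-fold changes were recovered by edgeR, with 3 false calls in 14900 null tests. The simulation had the same spread for all genes and no effect of the capture. True changes were set only in genes expected above 1 UMI in the smallest sum, so recovery of genes with fewer counts was not tested. Nuclei and untested genes were given as CPM with exact 95% Poisson intervals (scipy 1.17.1), and a count of 0 as the limit of 3 UMIs. Intervals cover counting error only. Multiples of this limit were taken from the pooled level itself and leave out its counting error. Genes with 0 UMIs in a type have no fitted fold change printed. Named in full were genes past the test in the type also highest in nuclei, and up to 3 genes per type from the pathway lists. DESeq2 1.42.0 and 16 further alternatives were tried in cells.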

Additional observations from a re-analysis of the deposited data

Results flagged for a closer look

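Rspo3 in basal cells was flagged because the assays went opposite ways: against the mean of the other 3 types its log2 difference was 0.8154 in basal nuclei, whereas it lay between -1.55 and -0.15 in the 3 cell captures. The marginal genes stood at a median of 28.5% of their marginal level in basal nuclei and 1.87% in basal cells. The difference between the assays, and the part of such RNA in it, was not tested.

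Some genes were flagged for levels outside the 4 SV types that exceeded those in all of them and in erythroid nuclei. Dkk2 reached 3667.6 CPM (95% interval 3358 to 3998) and Tcf7l1 220.77 CPM (150 to 313) in 98 unnamed nuclei led by E330013P04Rik, Crhbp, Otx2os1 and Slc26a7. Lef1 reached 237.78 CPM (193 to 289) in B cell nuclei, 178.81 CPM in 35 unnamed nuclei led by Cdh6, Tenm2 and Grik1, and 63.369 CPM in 90 unnamed nuclei led by Elane and Mpo, genes of immature myeloid cells. Sfrp4 reached 543.18 CPM (409 to 707) and Lgr4 167.89 CPM (97.8 to 269) in 48 unnamed nuclei led by Slc47a1, Sfrp4 and Penk. Ctnnb1 reached 887.08, 500.32 and 915.35 CPM in 3 unnamed clusters of 1704, 1229 and 773 barcodes, in which mitochondrial genes held 49.2%, 61.4% and 32.0% of the UMIs and Malat1, a nuclear RNA, had 3939, 4571 and 4472 CPM. No value in a group of captures could be tested as an outlier, since the cells have 3 captures.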

How the results depend on the processing

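Of 25 calls for single genes in cells, 15 were kept under every alternative that tested them, of 17 tried, and 10 were lost under at least 1. Not every gene was tested under each, and Wnt5b, Wnt4 and Sfrp1 had 15. The counting of clusters of mixed RNA with the types, an alternative chosen after seeing the data, reversed 4 of them: Dkk3 in marginal (0.4281) and basal cells (0.4518), and Wnt5a (0.0360) and Ctnnb1 (0.3621) in marginal cells, of which all but Wnt5a passed the edgeR test in the new direction. It also changed the counts of genes to 4 higher and 1 lower in marginal, 4 lower in intermediate, 10 higher and 0 lower in basal, and 4 higher and 5 lower in spindle/root cells. This alternative tested 8175 genes in place of 5318. Of these, 1296 were higher and 790 lower in marginal, 1317 lower in intermediate, and 1179 higher and 603 lower in basal cells. In spindle/root cells 866 were higher and 705 lower. More Wnt pathway genes could enter it, so its counts are not on the base of the 11 genes tested above.

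The 2 genes higher in marginal cells became 1 with no removal of doublets, with 20 principal components, with DESeq2, with mitochondrial genes left out, and with at least 10 or at least 4 cells per sum (the last chosen after seeing the data), and the 4 lower became 1 with 20 components. The 5 higher in basal cells became 8 with no filter on low counts and 8 with at least 10 cells, and the 2 lower became 1 with 20 components, with Wnt pathway genes allowed in clustering and with at least 500 genes per barcode, and 0 with DESeq2. With no filter, 4 were lower in intermediate and 6 higher in spindle/root cells, where 20 components and at least 4 cells gave 1. The fit with no filter tested 15201 genes, of which 932 were higher in basal, 712 lower in intermediate and 604 higher in spindle/root cells. Over all genes, 906 of 4885 were higher in marginal cells with no removal of doublets and 750 of 5318 with DESeq2. It was 836 of 4878 with mitochondrial genes left out and 737 of 3661 with at least 4 cells. In spindle/root cells 656 of 3661 were higher with at least 4 cells. In basal cells 771 of 4918 were lower with Wnt pathway genes allowed and 659 of 5084 with at least 500 genes. With DESeq2 it was 514 of 5318. At least 10 cells per sum left basal cells with the sum of capture 2 only. That fit tested 7008 genes and the fit with 20 components 6959, so their counts are on another base. Leaving out 1 capture gave 1 to 1 higher in marginal, 3 to 5 higher and 1 to 3 lower in intermediate, 3 to 8 higher and 0 to 2 lower in basal, and 0 to 2 higher in spindle/root cells. Without capture 2 or capture 3, spindle/root had 1 sum, assumed to vary like the others. The fits without captures 1, 2 and 3 tested 5042, 2921 and 6711 genes, so their counts do not share a base. Without capture 1, 814 genes were higher in marginal and 656 in spindle/root cells. In that fit 943 were higher and 750 lower in intermediate, and 777 higher and 612 lower in basal cells. Counts over all genes are not given for the fits that left spindle/root with 1 sum. The fit with no replicate block changed 1 call, Tcf7l2 in intermediate cells (0.5638). With no scaling beyond the total, the median of all genes moved to -0.38 in intermediate and 0.26 in spindle/root cells, with 563 genes higher and 1647 lower in intermediate (922 and 902 with TMM) and 908 and 163 in spindle/root cells (673 and 266 with TMM).

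In nuclei, 20 components set 1 gene apart in basal nuclei instead of 0, and a resolution of 0.4 left no basal nuclei, so no count could be given there. With limits of 10 or 100 UMIs, 41 or 31 genes would be described instead of 36.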

Other observations

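Outside the 4 SV types, 41 unnamed cells led by Ccl11, Meg3 and Dcn held several Wnt pathway genes. They had 41 UMIs of Wnt6 (174 CPM, 95% interval 125 to 236), 27 of Rspo1 (114 CPM, 75.3 to 166), 20 of Fzd2 (84.7 CPM, 51.7 to 131), 12 of Lef1 (50.8 CPM, 26.3 to 88.8) and 7 of Ror2 (29.6 CPM, 11.9 to 61.1). The 35 nuclei led by Cdh6 and Tenm2, which share Itga8, Dcn and Sdpr with these cells among their 10 leading genes, had 5 UMIs of Wnt6 (81.3 CPM, 26.4 to 190) and 2 of Rspo1 (32.5 CPM, 3.94 to 117). Lef1 was higher by count in B cells, with 14 UMIs in 37 cells (105 CPM, 57.6 to 177), and the Fzd2 interval touched that of basal cells (17.6 to 51.9 CPM).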
